A study of Mus musculus with 8 samples.

Results

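The dystrophin-glycoprotein complex is represented here by 9 genes, Dmd, Utrn, Dag1, Sgca, Sgcb, Sgcd, Sntb1, Dtna and Lama2, of 53647 genes in the count files. They were chosen by name, as the rows whose Ensembl identifier carries a listed symbol, though with earlier results of these data known. Each symbol matched 1 identifier, and all 9 passed the filter on low counts among 15603 genes. RNA was sequenced from cultures of wild-type mouse primary myotubes, fibres that form when muscle precursor cells (myoblasts) from limb muscle of pups 2 to 3 days old fuse in medium with 5% horse serum. The groups are OSM (oncostatin M), LIF (leukaemia inhibitory factor), IL6 (interleukin 6) and control, with 2 libraries in each. Each cytokine was given for 48 h at 250 ng/ml, all cells were harvested 72 h after differentiation, and what the control cultures received is not given in the labels. The labels do not say whether the 2 libraries of a group come from separate animals or cultures, so p-values measure the spread between these samples, which may be technical.

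The complex joins the actin cytoskeleton of a muscle fibre to the basement membrane outside it. Dystrophin (Dmd), or its relative utrophin (Utrn), binds actin at one end and dystroglycan (Dag1) at the other. Dystroglycan spans the membrane and binds laminin through sugar chains, the sarcoglycans (Sgca, Sgcb, Sgcd) stabilise it in the membrane, and syntrophin (Sntb1) and dystrobrevin (Dtna) attach signalling proteins from inside. Loss of dystrophin, of a sarcoglycan or of the laminin alpha-2 chain (Lama2) causes muscular dystrophy.

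Against control, the log2 changes of the 9 genes ran from −0.20 (with IL6) to 0.31 (with LIF). With OSM, 0 of the 9 genes passed the test, while 21.4% of all tested genes did. With LIF, Sgcb alone passed, rising 1.24-fold, against 7.66% of all genes. With IL6, 0 of the 9 and 0% of all genes passed. The LIF and IL6 counts are thus near the shares over all genes. The test is edgeR's quasi-likelihood F test with Benjamini-Hochberg adjustment over all 15603 genes, and a gene is called at an adjusted p under 0.05. Levels are CPM, counts scaled to a common library size with edgeR's TMM factors, and bulk RNA does not tell fewer cells of a type from less RNA per cell.

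Sequence windows before listed transcription starts are shown for the 3 sarcoglycan genes, because Sgcb was the one gene of the complex called with LIF. They are also shown for the related pair Dmd and Utrn, whose ratio is given per library. RefSeq lists 2 starts for Dmd, and the first is shown. Each line holds the 250 bases before a transcription start listed by RefSeq on GRCm38.p6, with capitals marking matches to the E-box letters CANNTG, which myogenic regulators such as MyoD bind. The counts themselves were made on another build, GRCm39.
Sgcb (chr5:73647738-73647987, minus strand): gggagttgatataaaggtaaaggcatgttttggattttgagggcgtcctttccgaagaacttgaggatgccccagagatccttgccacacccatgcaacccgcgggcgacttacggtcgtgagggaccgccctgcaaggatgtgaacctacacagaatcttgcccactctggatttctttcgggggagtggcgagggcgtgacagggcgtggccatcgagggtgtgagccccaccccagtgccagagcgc
Sgca (chr11:94976328-94976577, minus strand): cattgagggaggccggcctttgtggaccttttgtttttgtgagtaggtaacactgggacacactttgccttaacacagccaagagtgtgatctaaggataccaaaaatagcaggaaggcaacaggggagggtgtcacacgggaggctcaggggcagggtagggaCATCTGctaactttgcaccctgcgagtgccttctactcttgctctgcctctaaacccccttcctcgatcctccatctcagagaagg
Sgcd (chr11:47379326-47379575, minus strand): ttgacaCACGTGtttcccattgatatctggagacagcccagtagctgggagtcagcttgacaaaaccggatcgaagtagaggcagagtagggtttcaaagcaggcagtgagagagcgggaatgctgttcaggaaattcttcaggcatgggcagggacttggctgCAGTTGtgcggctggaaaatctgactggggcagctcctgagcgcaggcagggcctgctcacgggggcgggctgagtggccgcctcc
Dmd (chrX:82948620-82948869, plus strand): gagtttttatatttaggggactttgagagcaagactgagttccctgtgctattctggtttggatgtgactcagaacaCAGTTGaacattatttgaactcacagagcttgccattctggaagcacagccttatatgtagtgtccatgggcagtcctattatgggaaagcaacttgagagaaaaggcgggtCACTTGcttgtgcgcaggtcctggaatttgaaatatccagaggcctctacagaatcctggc
Utrn (chr10:12861736-12861985, minus strand): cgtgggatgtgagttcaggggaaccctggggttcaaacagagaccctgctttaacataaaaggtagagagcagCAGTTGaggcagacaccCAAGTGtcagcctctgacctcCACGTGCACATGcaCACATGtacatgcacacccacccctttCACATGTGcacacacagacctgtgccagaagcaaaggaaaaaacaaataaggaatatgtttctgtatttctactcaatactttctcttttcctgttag
Windows were taken for 7 of the 9 genes, not for Sntb1 and Dtna. Entries of a single chromosome were skipped in this step, so the lack of a Dtna window does not show that RefSeq lists no start. The Sgcb window holds 0 E-box matches, the Sgca window 1, and the Sgcd and Dmd windows 2 each. The Utrn window holds 7, some of them adjoining or overlapping, so that their capitals run together. It ends in a run rich in c and t followed by ag, letters that also precede internal exons. The Utrn window may therefore not be the promoter of the full-length transcript. Whether any of the listed starts is used in these cultures was not tested. An E-box match occurs in 66.2% of the 32851 windows of this length in the table. The letters TTCNNNGAA, a form of the site bound by STAT factors, which these cytokines activate, occur in 7.02% of all windows and in none of the 5 shown. Both motifs read the same on either strand, and a match describes the letters only.

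Dmd encodes dystrophin. It was measured at 67.3 and 61.8 CPM in the control libraries, 57.4 and 56.0 with IL6, 65.9 and 58.7 with LIF, and 57.3 and 63.0 with OSM. The IL6 libraries lay below both controls, while the LIF and OSM libraries overlapped them. Its log2 change (SE 0.078 in each comparison with control) was −0.10 for OSM and −0.052 for LIF, with adjusted p-values of 0.395 and 0.782. For IL6 it was −0.19, where an unadjusted p of 0.0321 became 0.943 after adjustment. The 95% interval for OSM ran from 0.829-fold to 1.05-fold.

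Utrn encodes utrophin, which takes dystrophin's place in fetal muscle and in muscle that lacks dystrophin. Its control libraries were far apart, at 364.9 and 304.9 CPM. The OSM libraries, at 389.3 and 387.2 CPM, exceeded both, while the IL6 libraries (353.5 and 316.6) and the LIF libraries (332.4 and 336.9) fell between them. The log2 change with OSM was 0.21 (SE 0.081, unadjusted p 0.0204), which missed the threshold (adjusted p 0.0806). Without control replicate 1 it was 0.35 and passed (adjusted p 0.00566). Without control replicate 2 the Utrn log2 change, OSM against control, was 0.098 (adjusted p 0.424). It also passed without IL6 replicate 1 (adjusted p 0.0309), without IL6 replicate 2 (0.0371) and without a filter on low counts (0.0103), in a range of 0.00566 to 0.424 over its alternatives. Changes with LIF (−0.001) and IL6 (0.001) were smaller than their SE of 0.081. Against LIF and against IL6 the OSM level was higher by 0.21 in each case (adjusted p 0.140 and 0.0988), values that did not pass. Over 14 alternatives the adjusted p ran from 0.000578 to 0.516 against LIF, with 4 that passed, and from 0.011 to 0.327 against IL6, with 5 that passed.

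Within a library, the ratio of Utrn to Dmd does not depend on library size. In counts it was 5.42 and 4.94 in control, 6.16 and 5.65 with IL6, 5.05 and 5.74 with LIF, and 6.80 and 6.15 with OSM. The OSM and IL6 libraries lay above both controls, and the LIF libraries overlapped them. Per kilobase of exon the mean ratio was 7.20 ± 0.477 in control and 9.01 ± 0.637 with OSM (SD, n = 2). With the longest annotated transcript as the length these means were 6.24 and 7.80. The ratio is described here and was not tested. Gene counts add up all isoforms, including short products of Dmd that lack the actin-binding end.

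**Figure D1:**
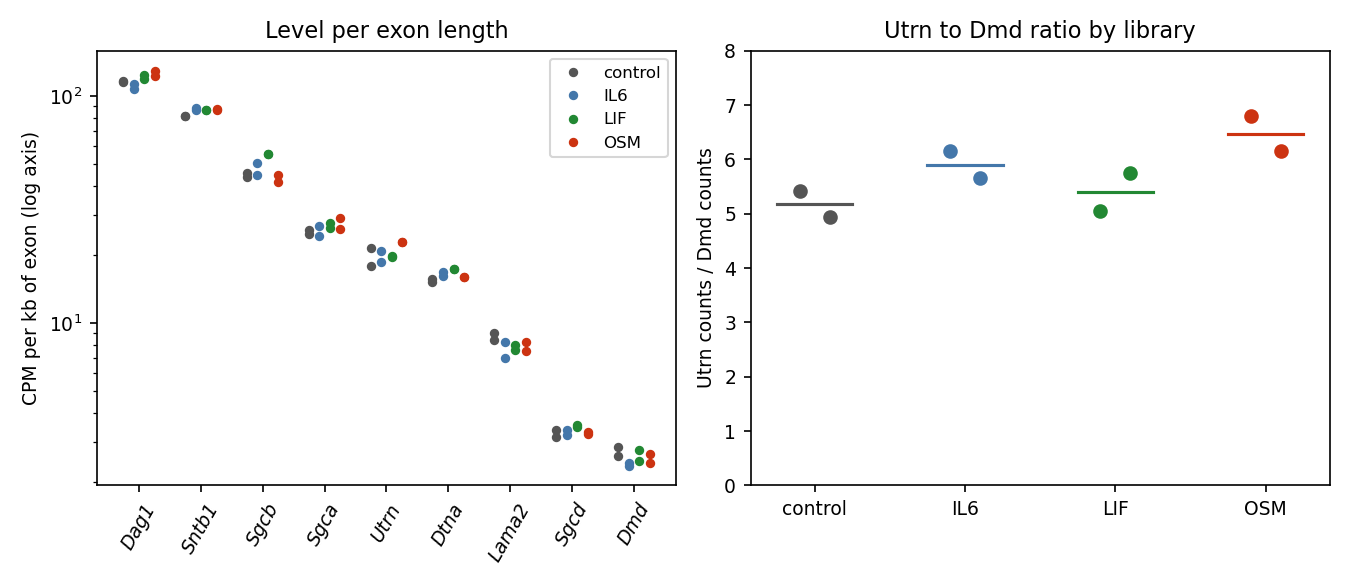
Left, CPM per kilobase of exon on a log axis for the 9 genes, with 2 points per group, ordered by control mean from Dag1 (115.3) to Dmd (2.71). Right, the ratio of Utrn to Dmd counts in each of the 8 libraries with group means as lines, where both OSM points (6.80 and 6.15) exceed both control points (5.42 and 4.94).

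Levels between genes were compared per kilobase of exon. In control, Dag1 was highest at 115.3 ± 0.707 CPM per kb, followed by Sntb1 (81.5 ± 0.459), Sgcb (44.8 ± 1.09), Sgca (25.2 ± 0.763), Utrn (19.6 ± 2.48), Dtna (15.3 ± 0.336), Lama2 (8.74 ± 0.464), Sgcd (3.26 ± 0.181) and Dmd (2.71 ± 0.164, SD, n = 2 each). No 2 neighbours in this order overlapped in any of the 8 libraries. In ratio, the closest approach was between Utrn, whose lowest library had 17.8, and Dtna, whose highest had 17.4. The order depends on the length used: per kilobase of longest transcript Dtna (41.3) came above Utrn (27.05) and Sgca (25.4), while Dag1, Sntb1 and Sgcb kept the first places and Dmd (4.33) the last. Among the 3 sarcoglycans, whose proteins assemble as one unit, Sgcb was highest and Sgcd lowest with either length.

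Dag1 encodes both subunits of dystroglycan, cut from a single precursor. Its libraries read 736.1 and 729.8 CPM in control, 682.7 and 716.7 with IL6, 784.5 and 754.2 with LIF, and 821.9 and 778.9 with OSM. The IL6 libraries lay below both controls, and the LIF and OSM libraries above both. None of these differences from control passed: the log2 change, with an SE of 0.060, was 0.13 for OSM, 0.070 for LIF and −0.067 for IL6, and the adjusted p-values were 0.161, 0.585 and 0.950. OSM exceeded IL6 by 0.19 (95% interval 0.064 to 0.32), or 1.14-fold, and this was called (adjusted p 0.0439). The call was lost with only these 2 groups in the fit (adjusted p 0.0917), without IL6 replicate 1 (0.11), without LIF replicate 1 (0.092) or 2 (0.0919), and without OSM replicate 1 (0.296) or 2 (0.0943).

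Sgcb, which encodes beta-sarcoglycan, gave the clearest difference. It was at 178.4 and 184.6 CPM in control, 182.5 and 204.1 with IL6, 223.7 and 225.0 with LIF, and 169.9 and 181.6 with OSM. The LIF libraries stood above the 6 others, and the IL6 and OSM libraries each overlapped the controls. The log2 change with LIF was 0.31 (SE 0.066, adjusted p 0.0117), a fold of 1.24 with a 95% interval of 0.16 to 0.45 on the log2 scale. Summed fibroblast markers were also higher with LIF (1984 to 2047 CPM) than in control (1652 to 1717), and higher still with OSM (2059 to 2167). The sums came mostly from Col3a1, while Col1a1 was at 239.2 CPM in control and 150.6 with LIF (adjusted p 0.523). The part of these markers in the Sgcb change was not tested. OSM changed it by −0.047 (SE 0.066, adjusted p 0.676), with an interval of 0.877-fold to 1.07-fold. The direct test of OSM against LIF gave −0.35 (SE 0.066, adjusted p 0.00432). Under the alternatives the LIF change stayed between 0.28 and 0.34, but the call was lost without control replicate 1 (adjusted p 0.0567), LIF replicate 1 (0.104) or LIF replicate 2 (0.130), and that of OSM against LIF without LIF replicate 1 (0.0642), LIF replicate 2 (0.0563) or OSM replicate 1 (0.117).

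The other sarcoglycan genes passed in no comparison. Sgca, for alpha-sarcoglycan, read 42.8 and 44.7 CPM in control, 41.7 and 46.5 with IL6, 47.9 and 45.6 with LIF, and 50.2 and 45.1 with OSM. Both LIF and OSM libraries lay just above the controls, with log2 changes of 0.096 (SE 0.080, adjusted p 0.567) and 0.12 (SE 0.080, adjusted p 0.310). Sgcd, for delta-sarcoglycan, was at 28.0 and 25.9 CPM in control, 26.5 and 27.9 with IL6, 29.4 and 28.6 with LIF, and 26.8 and 27.3 with OSM. Its change with LIF was 0.11 (SE 0.079, adjusted p 0.511) and with OSM 0.005 (adjusted p 0.975). The 95% fold intervals for LIF reach down to 0.949 for Sgca and 0.957 for Sgcd, and up to 1.21 for Sgcd. Whether the LIF change of Sgcb differs from theirs was not tested.

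Sntb1 and Dtna encode beta-1-syntrophin and alpha-dystrobrevin. Sntb1 was at 432.3 and 435.7 CPM in control, 469.0 and 459.3 with IL6, 462.9 and 460.3 with LIF, and 462.4 and 464.5 with OSM. All 6 cytokine libraries exceeded both controls, with log2 changes of 0.095, 0.089 and 0.097 for OSM, LIF and IL6 (SE 0.055, adjusted p 0.257, 0.411 and 0.943). Dtna was at 255.7 and 263.7 CPM in control, 284.2 and 272.0 with IL6, 292.3 and 293.9 with LIF, and 270.3 in both OSM libraries. Again all 6 lay above the controls, and the LIF change of 0.17 (SE 0.056, unadjusted p 0.0082) missed the threshold (adjusted p 0.0818). It passed without IL6 replicate 1 (adjusted p 0.034) or IL6 replicate 2 (0.0358).

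Lama2 encodes the laminin alpha-2 chain, the ligand that dystroglycan binds in the muscle basement membrane. It read 137.5 and 148.2 CPM in control, 114.3 and 134.1 with IL6, 130.5 and 124.7 with LIF, and 123.2 and 134.1 with OSM. All 6 cytokine libraries were below both controls. The log2 changes, each with an SE of 0.079, were −0.15 for OSM, −0.16 for LIF and −0.20 for IL6. Their adjusted p-values were 0.206, 0.269 and 0.943, the last from an unadjusted 0.024. The IL6 change passed without IL6 replicate 2 (−0.32, adjusted p 0.0472). In the reference annotation 3.86% of the Lama2 exon bases lie opposite Gm48084, and the strand setting of the counting is not given in the sources used here.

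**Figure D2:**
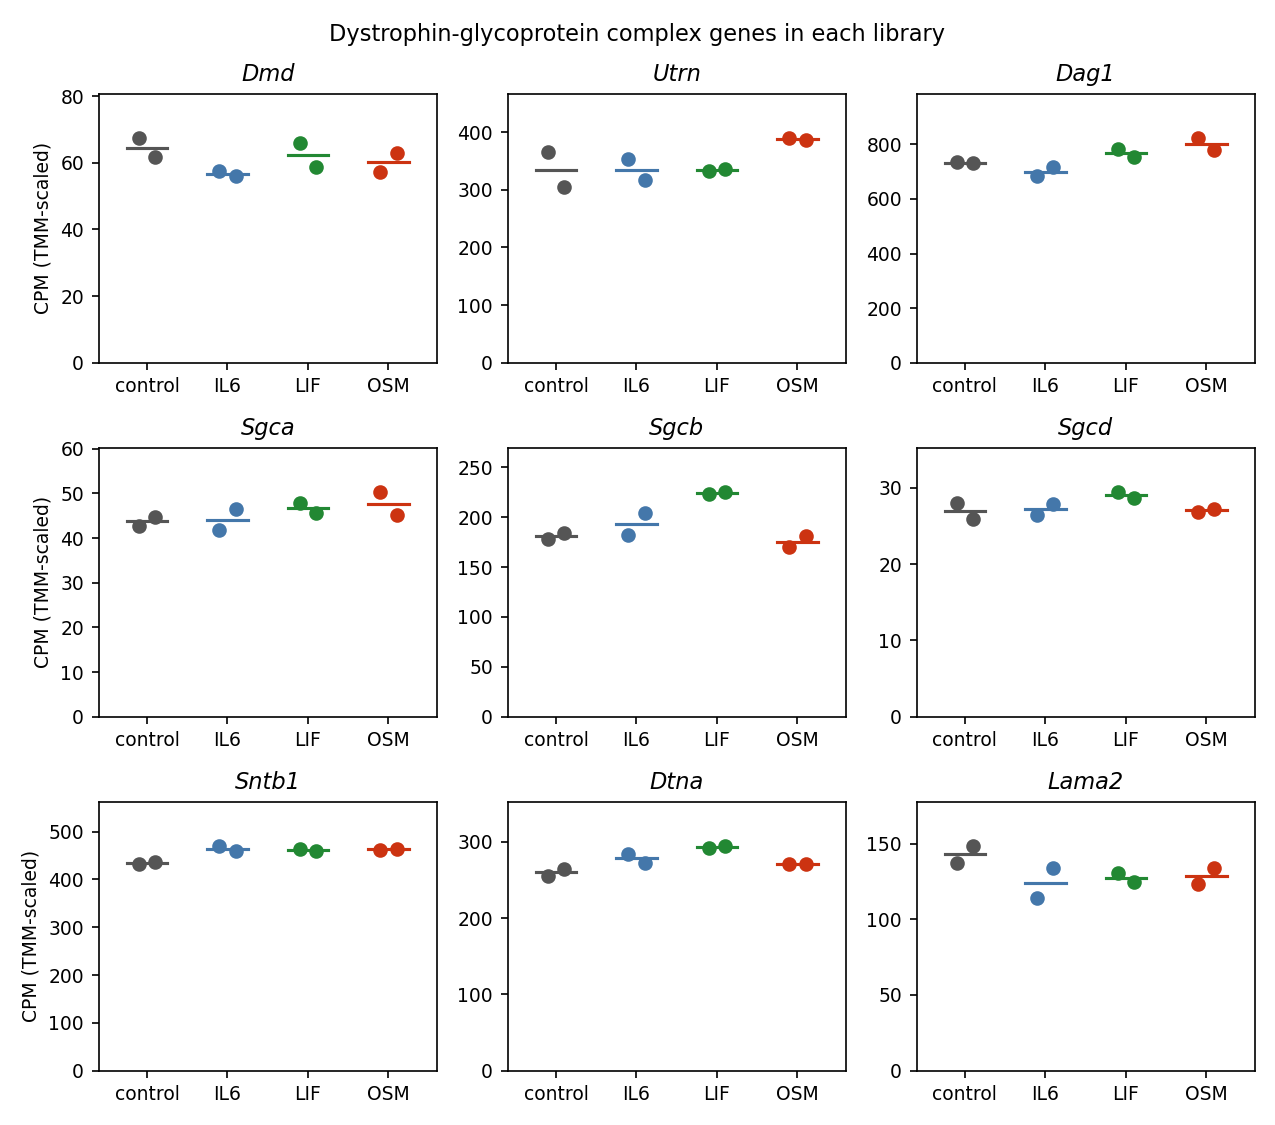
CPM of the 9 genes in each of the 8 libraries, 1 panel per gene with its own axis from 0; points are libraries and lines group means. The 2 LIF points of Sgcb (223.7 and 225.0) stand above its other points, and the Lama2 control points (137.5 and 148.2) lie above the other 6.

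Counted over the complex, the groups did not overlap for 6 of the 9 genes with OSM (5 above control, 1 below), for 7 with LIF (6 above, 1 below) and for 5 with IL6 (2 above, 3 below). Over all tested genes the shares were 60.9%, 52% and 28.2%. The 3 comparisons share the control libraries. All 6 cytokine libraries lay on 1 side of both controls for 3 genes, Sntb1, Dtna and Lama2, and for 13.7% of all genes. The median log2 change of the 9 genes was 0.058 with OSM, 0.089 with LIF and 0.013 with IL6, where the medians over all genes were −0.003, −0.008 and 0.001.

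Without adjustment, 1 of the 9 genes had a p under 0.05 with OSM (Utrn), where 32.8% of all genes did, and 2 with IL6 (Dmd and Lama2), where 5.1% did. The DESeq2 Wald test also called 0 of the 9 with OSM and 0 with IL6. The 95% intervals are per gene, rest on the spread between these libraries, and give no joint bound over the 9 genes. With OSM they ran, over the 9 genes, from 0.800-fold at the lowest to 1.31-fold at the highest. With LIF they ran from 0.794-fold to 1.36-fold, and with IL6 from 0.773-fold to 1.18-fold.

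Between the cytokines, OSM and LIF differed at 1 of the 9 genes (Sgcb), where 8.04% of all genes differed, and OSM and IL6 at 1 (Dag1), where 15.5% did. LIF and IL6 differed at 0 by edgeR and 0 by DESeq2, against 2.78% of all genes by edgeR. Without adjustment 2 genes, Dag1 and Sgcb, had a p under 0.05 there, against 14.7%.

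**Figure D3:**
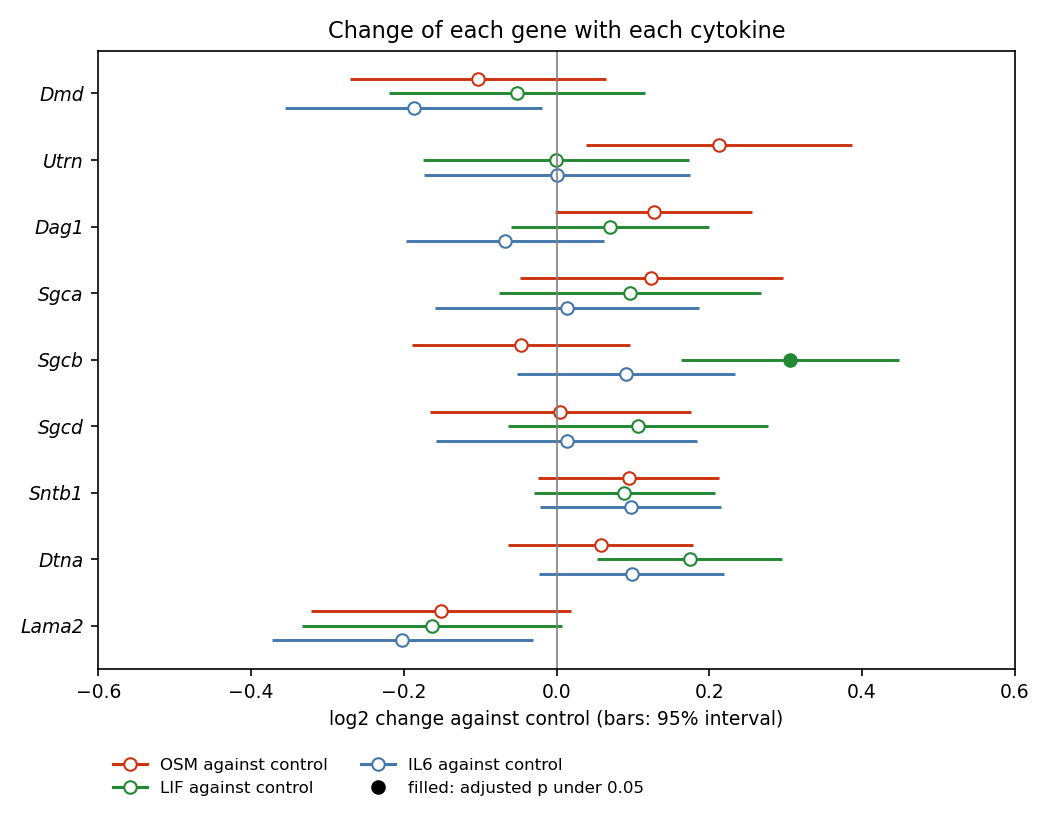
Log2 change of each gene against control with its 95% interval for OSM, LIF and IL6; filled points passed an adjusted p under 0.05. The filled point is Sgcb with LIF (0.31), and no interval reaches a log2 change of 0.5 in either direction.

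Likeness of pattern was measured as the root mean square difference of log2 CPM, centred on each gene's mean, over the 8 libraries. The rule asked for the nearest genes of each member called with OSM, and there were 0 such members. For Sgcb, taken after its values were seen, the nearest of 10861 candidate genes were Itga1 (difference 0.037) and Jagn1 (0.041), where the spread of Sgcb itself on this scale was 0.144. Itga1 encodes an integrin subunit that binds collagen. Its LIF change was 0.24 (adjusted p 0.230) and its OSM change −0.048 (adjusted p 0.808). Jagn1 was called with LIF (0.28, adjusted p 0.0408) and not with OSM (0.005, adjusted p 0.975).

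Further genes of the complex were taken as a list of 11, of which 7 passed the filter on low counts. With OSM, 0 of the 7 were called by edgeR (2 at an unadjusted p under 0.05, and 1, Cav3, by DESeq2), and 8 of the 14 alternatives gave 1. With LIF 0 were called by either tool or by unadjusted p. Over all genes edgeR called 21.4% with OSM and 7.66% with LIF, and 32.8% had an unadjusted p under 0.05 with OSM. Dtnb, for a second dystrobrevin, was called higher by edgeR with OSM than with LIF (0.50, adjusted p 0.0441). It was also called higher with OSM than with IL6 (0.45, adjusted p 0.0452). DESeq2 called 0 of the list in either comparison, and against control the OSM change of Dtnb was 0.33 (edgeR adjusted p 0.111). Sspn, for the small membrane protein sarcospan, had 304.4 ± 29.9 CPM in control and 283.5 ± 11.1 with OSM, a change of −0.10 (adjusted p 0.406). Nos1, the neuronal nitric oxide synthase that syntrophin anchors in mature muscle, had 0 to 2 counts per library and was not tested.

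On the inner side, the list of cytoskeleton and membrane linkers had 4 of 11 tested genes called with OSM, 3 higher and 1 lower, and 4 with LIF, all higher. Over all genes 10.8% were called higher and 10.6% lower with OSM, and 4.2% higher and 3.46% lower with LIF. Ank3, one of the ankyrins that tether membrane proteins to the cytoskeleton, was at 121.2 ± 9.80 CPM in control and rose by 0.64 (SE 0.070, adjusted p 2.18e-05) to 188.5 ± 2.97 CPM with OSM. Its relative Ank2 fell from 57.99 ± 2.57 to 40.3 ± 4.46 CPM in the OSM libraries (log2 change −0.52, SE 0.082, adjusted p 0.000439). With LIF, Ank3 rose by 0.39 (adjusted p 0.00391) and Ank2 changed by −0.066 (adjusted p 0.722). The intermediate filament genes Synm and Des rose with both cytokines. For Synm the OSM change was 0.55 (SE 0.12, adjusted p 0.00379) and the LIF change 0.45 (adjusted p 0.0302). For Des they were 0.30 (SE 0.063, adjusted p 0.00411) and 0.55 (adjusted p 0.000181). Without OSM replicate 1, Des missed the threshold with OSM (adjusted p 0.0504). Without LIF replicate 2, Ank3 (adjusted p 0.0849) and Synm (0.323) did with LIF. Synm did so too with only the 2 groups in the fit (0.0527) and without control replicate 1 (0.19), LIF replicate 1 (0.0689) or either OSM library (0.0613 and 0.0614). The LIF count of this list was 2 without control replicate 1, LIF replicate 1 or LIF replicate 2.

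Dystroglycan binds laminin only once its sugar chains are built. Of 18 tested genes for these steps 4 were called with OSM, 3 higher and 1 lower, a share near the 21.4% of all genes. LIF gave 0 by edgeR, 0 by DESeq2 and 1 at an unadjusted p under 0.05. Pomgnt2 rose by 0.35 (adjusted p 0.0395) and Dolk by 0.37 (adjusted p 0.0433), while Pomt1, for a transferase of the first step, fell with a log2 change of −0.37 (SE 0.10, adjusted p 0.0174). These calls are close to the threshold: DESeq2 called 2 of the 4, and the count was 0 without OSM replicate 1, 1 without OSM replicate 2 or control replicate 1, and 2 without control replicate 2 or either LIF library.

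On the outer side, 7 of 15 tested genes for laminins and other basement membrane proteins were called with OSM, 2 higher and 5 lower, and 5 with LIF, 1 higher and 4 lower. The shares over all genes, either direction, were 21.4% and 7.66%. The type IV collagen genes, which form the basement membrane's network, fell with OSM. Col4a1 had 519.6 ± 32.8 CPM in control and 258.6 ± 9.32 with OSM, which is −1.01 on the log2 scale (SE 0.086, adjusted p 2.93e-06). Col4a2 had 370.6 ± 25.9 and 225.0 ± 0.481 CPM, which is −0.72 (SE 0.068, adjusted p 5.06e-06). With LIF they fell too, with changes of −0.47 (adjusted p 0.00511) and −0.34 (adjusted p 0.00723), calls that were lost without LIF replicate 2 (0.106 and 0.156). Among laminin chains, Lamb3 fell with OSM (−0.82, SE 0.19, adjusted p 0.00904) and Lamb1 rose (0.18, SE 0.058, adjusted p 0.0429). Without control replicate 1 the Lamb3 change was −0.44 and missed the threshold (adjusted p 0.0544), as it did without OSM replicate 2 (0.0825). Lamb1 missed it without any one of the control, LIF or OSM libraries (adjusted p 0.0907 to 0.248). The LIF count of this list was 0 without LIF replicate 2, 2 without LIF replicate 1, and 3 without control replicate 1 or either OSM library.

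Integrins are the other laminin receptors of muscle. Of 16 tested genes for integrins and their linkers 5 were called higher with OSM and 0 lower, where 10.8% of all genes were higher and 10.6% lower. With LIF 1 was higher and 1 lower, near the 4.2% and 3.46% of all genes. Itga7, the laminin-binding alpha subunit of muscle, rose from 655.4 ± 3.82 CPM in control to 778.8 ± 13.5 with OSM (0.25, SE 0.058, adjusted p 0.00747) and to 833.4 ± 25.8 with LIF (0.35, SE 0.058, adjusted p 0.0026). Zyx and Ilk, which encode proteins of the adhesion site, rose with OSM too, Zyx by 0.37 (adjusted p 0.00218) and Ilk by 0.26 (adjusted p 0.0159). Without OSM replicate 1 none of the 16 was called with OSM (Itga7 0.0812, Zyx 0.0519, Ilk 0.130), and without OSM replicate 2 the count was 2. Ilk also missed the threshold without control replicate 1 (0.16, adjusted p 0.142) and without OSM replicate 2 (0.0702). Without either IL6 library it was 8. With LIF the Itga7 call was lost without LIF replicate 1 (adjusted p 0.0623), where the count was 0. Without IL6 replicate 1 the LIF count was 4.

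With IL6, 0 of the 67 tested genes of these 5 lists were called by edgeR or by DESeq2, and 10 had an unadjusted p under 0.05, of which 9 were in the laminin and basement membrane list. Over all genes 5.1% had such a p.

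**Figure D4:**
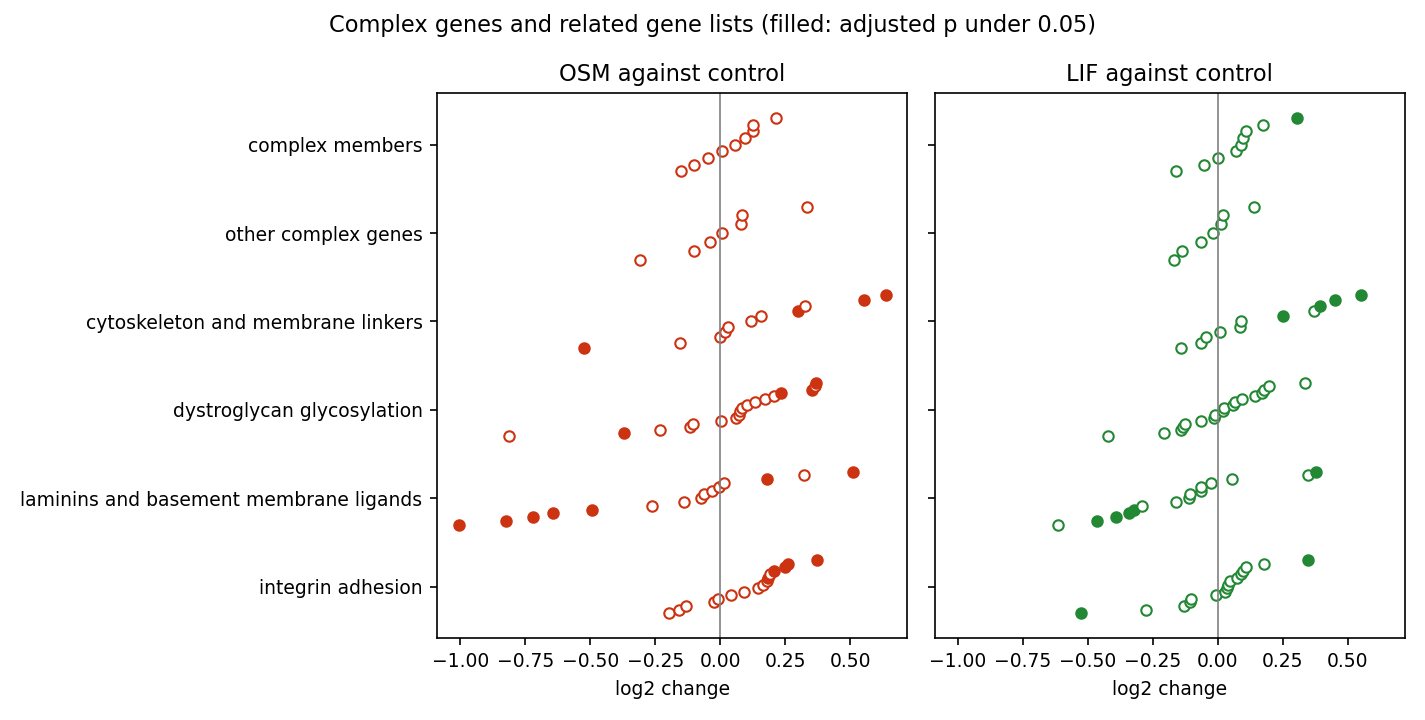
Log2 change with OSM (left) and LIF (right) of the 9 complex genes and the tested genes of the 5 related lists; each point is a gene and filled points passed an adjusted p under 0.05. The lowest filled point is Col4a1 with OSM (−1.01), and 0 of the complex members are filled with OSM.

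Total counts were 29482077 to 30025471 per library, and counts of the 9 genes ran from 771 (Sgcd) to 24025 (Dag1). Markers of myotubes were abundant in every group, with a summed level over 9 genes of 22880 to 24380 CPM in control, 19820 to 22400 with IL6, 20520 to 21810 with LIF and 19900 to 20110 with OSM, and 2 of the 9 were lower with OSM and with LIF. The sum over 8 fibroblast markers was 1652 to 1717 CPM in control, 1504 to 1704 with IL6, 1984 to 2047 with LIF and 2059 to 2167 with OSM, mostly from Col3a1. Col1a1 was lower, at 239.2 CPM in control and 78.4 with OSM (−1.61, adjusted p 0.0858), and Lum and Tcf21 were at 0 counts. The sum over 4 myoblast markers was 424.8 to 442.6 CPM in control, 394.4 to 402.8 with IL6, 331.9 to 349.5 with LIF and 241.9 to 242.1 with OSM. In that list the proliferation gene Mki67 fell with OSM (−2.02), and 2 of the other genes rose. Summed markers of macrophages (at most 5.75 CPM), endothelial cells (at most 2.28) and smooth muscle or pericytes (at most 3.06) were low, and those of Schwann cells (156.0 to 181.9) rested on Erbb3, with Sox10 at 0 to 2 counts. The part of these shifts in the changes of Sgcb, the collagen genes and the other called genes was not tested.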

How the data were processed

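RNA-seq counts of 8 libraries of mouse primary myotubes were used, 2 in each of 4 groups taken from the sample titles. The authors deposited raw read counts per Ensembl gene, 1 file per library with replicates not pooled, per the file headers and labels. The submitters' processing notes name, with no role or order, Trim Galore 0.6.5, STAR 2.7.3a, HTSeq 0.11.1 and DESeq2 1.34.0, and the build GRCm39. The library kit was stranded and selects mRNA, per the labels' protocols, and the annotation release and the strand setting are not given in the sources used here. The summary lines that name no gene held 11.7% to 12.7% of alignments and stayed out of library sizes and tests.

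Symbols were matched through GENCODE M21 (52093 of 53647 identifiers). Exon lengths, overlaps and shared 50-base stretches of the members were also computed from M21, an annotation of another build, GRCm38, so the lengths are approximate. No member shared more than 1.14% of these stretches with another gene. Genes were filtered with filterByExpr (minimum count 10), scaled by TMM and fitted in edgeR 4.0.16 (R 4.3.3) with 4 group means over all 8 libraries, without a replicate block and with robust quasi-likelihood estimation. Benjamini-Hochberg adjustment ran over all 15603 genes within each of 6 contrasts. Intervals are 95%, from the fit's SE. With 2 libraries a group an SD is a rough measure. Alternatives were RLE scaling, no filter, DESeq2 1.42.0, only the 2 groups of a contrast, a replicate block, no robust option and leaving out each library.

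The members and lists were chosen with earlier results of these data known. Every member is named. From each list, the 3 largest called rises and falls with OSM are named, together with a few fixed genes, among them Itga7, Sspn and Nos1. Some genes that this rule names are not reported here. The alternatives for list genes were added after seeing the data.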

Additional observations from a re-analysis of the deposited data

Results flagged for a closer look

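Effects of 2 cytokines on the same gene differed in the direct test for 2 of the 9 complex genes. Sgcb was lower with OSM than with LIF (log2 difference −0.35, adjusted p 0.00432 by edgeR's quasi-likelihood test), with both OSM libraries below both LIF libraries. Dag1 was higher with OSM than with IL6 (0.19, adjusted p 0.0439), again without overlap of the libraries. Over all genes 8.04% differed between OSM and LIF. Apart from a few fixed genes, the list genes named by the rule were chosen for a call with OSM against control. The same OSM libraries thus enter the choice and this comparison, so the count is no independent support. Among these list genes, OSM and LIF differed for 5. Of these, Des (−0.25), Ank2 (−0.46), Col4a1 (−0.54) and Col4a2 (−0.38) were lower with OSM than with LIF, and Zyx was higher (0.34). The Col4a1 call held under all 14 alternatives. The Des call was lost without any one LIF or OSM library (adjusted p 0.0864 to 0.34), Ank2 without LIF replicate 2 (0.0581) or OSM replicate 1 (0.0819), and Col4a2 without LIF replicate 1 (0.0919) or OSM replicate 1 (0.0638). Zyx lost it without LIF replicate 1 (0.157), LIF replicate 2 (0.0626) or OSM replicate 1 (0.189). Those of Sgcb and Dag1 were lost without the libraries named with their results. The list genes that the naming rule gives were compared for OSM against LIF only.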

How the results depend on the processing

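The number of complex genes called moved by 1 or 2 genes under the alternatives. Without a filter on low counts OSM against control gave 1, OSM against LIF 2, OSM against IL6 2 and LIF against IL6 1. Over all genes that setting gave 3704, 1742, 2843 and 985 calls, against 3335, 1255, 2426 and 434 in the main fit. With the replicate block OSM against control gave 1 complex gene (Utrn, adjusted p 0.0259). OSM against IL6 gave 2 there and LIF against IL6 1. Over all genes the block gave 3966, 3000 and 826 calls in these 3 comparisons. The replicate numbers were not taken to pair the libraries, because the labels do not say so. Correlations of same-numbered deviations were 0.305, 0.195 and 0.135 between control and IL6, LIF and OSM, 0.135 between IL6 and OSM, and 0.01 and 0.022 between LIF and these 2, so a shared batch was not settled. With only the 2 groups in the fit, OSM against LIF gave 3 and OSM against IL6 0. Over all genes that fit gave 2928 and 2065 calls, against 1255 and 2426 in the main fit. Leaving out 1 library gave 0 to 1 for OSM against control, 0 to 2 for LIF against control, 0 to 1 for IL6 against control, 0 to 2 for each of OSM against LIF and OSM against IL6, and 0 to 1 for LIF against IL6. Where this left a group with 1 library, that library was assumed to vary like the other groups. Of 756 values of single complex genes under alternatives, 722 kept their side of the threshold, 22 passed it newly and 12 lost the call, and no called value changed direction. RLE scaling, DESeq2 and the fit without the robust option changed no call of a complex gene. Of 1064 values of named list genes, 981 kept their side, 26 passed newly and 57 lost the call. The causes of these shifts were not tested. Counts of complex genes were at least 771 in every library, and replicates differed beyond counting error (chi-square per gene 2.38 to 8.34), so the number of libraries, 2 a group, limits the precision of these values.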
